A study of Mus musculus with 2 samples.

Results

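The small heat shock proteins are ATP-independent chaperones, and striated muscle holds more of them than most tissues. Of the 8 genes described here, 7 encode members of this family (Hspb1, Hspb2, Hspb3, Hspb6, Hspb7, Hspb8 and Cryab), and the other gene is Bag3, which encodes their co-chaperone. They were picked by gene symbol from the 32285 features of both count matrices, and all 8 were found. The rule names symbols and uses no measured value, though the genes were proposed with earlier results of these data known.

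Small heat shock proteins share a conserved alpha-crystallin domain, form oligomers and bind partly unfolded proteins so that these do not aggregate. Release and refolding are left to the ATP-driven HSP70 chaperones. In muscle the family guards actin, desmin, titin and filamin, which are strained by every contraction. BAG3 joins HSPB8 to HSP70, and this assembly sends damaged filamin to autophagy. Mutations in human CRYAB and BAG3 cause myofibrillar myopathy.

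Satellite cells, the Pax7-expressing stem cells beneath the basal lamina of muscle fibres, were sorted by fluorescence from mice 8 weeks old that carried 1 copy each of Pax7 CreERT2 (Pax7 CreERT2/+) and of the reporter Rosa26 mTmG (Rosa26 mTmG/+), so that an inducible Cre under the Pax7 locus switches the membrane reporter in Pax7 cells. Quiescent satellite cells (QSCs) came from uninjured tibialis anterior (TA) muscle, and activated satellite cells (ASCs) from TA muscle 1.5 days after cardiotoxin, a venom toxin that destroys fibres. Both libraries therefore carried the same alleles and reporter, and each was a pool of several mice. With 1 library per group, condition and library cannot be told apart, no difference has a replicate check, and every interval given is a 95% interval of counting error only.

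Bursts of chaperone transcription are driven by heat shock factor 1 at heat shock elements, repeats of GAA and TTC in alternating order. Promoter sequences, from 250 bases before to 50 bases after a transcription start, were taken from RefSeq (GRCm38.p6) for 7 starts of 6 of the genes. None was found for Hspb2 and Cryab. The shortest element pair, GAANNTTC, reads the same on both strands. It occurred in 5 of the 7 promoters, and in 7.86% of all 32851 promoters of this length. The opposite order, TTCNNGAA, occurred in none of the 7 and in 8.52% of all promoters, and 15.1% held either pair. This first pair followed, after 2 free bases, by another GAA, read on either strand, occurred in none of the 7 and in 0.603% of all promoters. A match of letters is a description and does not show that a factor binds. The 6 matches are shown because, of the element patterns searched, GAANNTTC was the one that most of these promoters held. The pair is in capitals, read 5′ to 3′ on the gene's strand.
Hspb1, first match: cttcaacaagaGAAGTTTCcagatgggggc
Hspb1, second match: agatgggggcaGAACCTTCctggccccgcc
Hspb8: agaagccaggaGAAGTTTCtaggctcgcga
Bag3: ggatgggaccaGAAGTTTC
Hspb6, downstream start: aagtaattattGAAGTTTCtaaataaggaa
Hspb3: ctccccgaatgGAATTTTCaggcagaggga
The Hspb1 windows lay at chr5:135887791-135887820 and chr5:135887811-135887840 on the plus strand, with their pairs at bases -117 to -110 and -97 to -90 from the start. The Hspb8 window lay at chr5:116422844-116422873 on the minus strand, with the pair at bases 3 to 10 of the transcript. The Bag3 window lay at chr7:128523614-128523632 on the plus strand, and its pair filled bases 43 to 50 of the transcript, where the stored sequence ends. The Hspb6 window lay at chr7:30553170-30553199 (plus strand, pair at -120 to -113), and the other stored Hspb6 start had no match. The Hspb3 window lay at chr13:113663882-113663911 (minus strand, pair at -224 to -217). Hspb7 had no match in its 1 stored promoter. GAAGTTTC was the exact match in Hspb1, Hspb6, Hspb8 and Bag3.

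The genes lie on 5 chromosomes (GENCODE M21, GRCm38). Hspb1 (ENSMUSG00000004951) is at chr5:135887919-135889563 and Hspb8 (ENSMUSG00000041548) at chr5:116408491-116422864. Hspb6 (ENSMUSG00000036854) is at chr7:30552178-30555443 and Bag3 (ENSMUSG00000030847) at chr7:128523616-128546981. Hspb7 (ENSMUSG00000006221) is at chr4:141420779-141425311 and Hspb3 (ENSMUSG00000051456) at chr13:113662896-113663676. Hspb2 (ENSMUSG00000038086, chr9:50751078-50752354, minus strand) and Cryab (ENSMUSG00000032060, chr9:50751325-50756636, plus strand) are divergent neighbours whose annotated genes overlap by 1030 bases. Hspb6 overlaps Proser3 by 122 bases and Lin37 by 3 bases on the other strand. Whether the counting used strand is not given in the sources used here, so the counts of Hspb2, Cryab and Hspb6 are less certain.

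After filtering, the QSC library held 516 barcodes with 1162091 unique molecular identifiers (UMIs, each standing for 1 captured transcript) and the ASC library 1468 barcodes with 8895815 UMIs. The median barcode had 2155 UMIs and 4.44% mitochondrial UMIs in the QSC library, against 3502 UMIs and 0.297% in the ASC library. Both libraries held barcodes that drew 5% or more of their UMIs from 10 fibre genes (Acta1, Ckm, Myh1, Myh4, Mylpf, Myl1, Tnnc2, Tnni2, Tnnt3 and Atp2a1), here called the fibre class: 104 of 516 QSC and 954 of 1468 ASC barcodes. Their satellite cell label went against their Pax7 level, which was 9.32 CPM (UMIs of a gene per 1000000 UMIs of the group) in the QSC and 2.26 CPM in the ASC fibre class. Another 40 QSC and 86 ASC barcodes carried markers of non-muscle cells, of which 16 and 70 were macrophage-like or monocyte-like. The remaining muscle barcodes, 372 QSC and 428 ASC, held Pax7 at 213 CPM and 29.4 CPM, and Myod1, the determination factor of activated cells, at 149 CPM and 412 CPM. Markers of activation did not follow Pax7 in the ASC fibre class, which held Myod1 at 169 CPM and Myog at 148 CPM. In ASC macrophage-like barcodes these stood at 19.6 CPM and 61.1 CPM. Among all barcode sequences, 4 occurred in both libraries. The 8 genes were therefore compared over all barcodes and within these classes, while lists of related genes are given mainly over all barcodes. In sums over barcodes, more cells and more RNA per cell cannot be told apart.

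Together the 8 genes made up 0.193% of QSC UMIs (2240 UMIs) and 1.25% of ASC UMIs (111501 UMIs). Of the 8 genes, 6 were at least 2-fold higher in the ASC library and 0 were at least 2-fold lower. Of 7353 genes with a mean of at least 10 CPM, 13.6% were at least 2-fold higher and 22.6% at least 2-fold lower. The median gene with at least 20 UMIs in each library lay at -0.24 on the log2 scale, so ratios are also given relative to it.

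Cryab encodes alpha-B-crystallin, the family member best known for holding desmin and titin. Its 911 QSC UMIs amounted to 784 CPM and its 58876 ASC UMIs to 6618 CPM. The log2 ratio of ASC over QSC was 3.08 (2.98 to 3.17), and 3.32 once the median gene was set to 0. Hspb1 encodes HSP25, the mouse counterpart of human HSP27, which binds actin filaments. It went from 294 CPM (342 UMIs) to 2612 CPM (23234 UMIs), with a log2 ratio of 3.15 (2.996 to 3.31), and 3.39 with the median gene at 0. Only 98 of the 7353 genes had a higher ratio than Hspb1, and 105 a higher ratio than Cryab. Hspb6 encodes HSP20, which is phosphorylated by cyclic nucleotide signalling. Its 465 QSC UMIs were 400.1 CPM and its 11816 ASC UMIs 1328 CPM, which gave a log2 ratio of 1.73 (1.60 to 1.87). All 3 levels were higher in the ASC library, Hspb6 by less than the other pair.

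Hspb8 encodes HSP22, the partner of BAG3. It had 82 UMIs in QSCs (70.6 CPM) and 4345 in ASCs (488 CPM), and the log2 ratio was 2.79 (2.48 to 3.12). Bag3 itself was lower in the ASC library, with 110 CPM in QSCs (128 UMIs) against 60.0 CPM in ASCs (534 UMIs). Its log2 ratio was -0.88 (-1.16 to -0.59), and -0.64 against the median gene. The gene for the small heat shock protein and the gene for its co-chaperone thus had ratios of opposite sign over all barcodes. Under the study's mitochondrial limit of 1%, which left 85 fibre-class barcodes among 86 QSC barcodes, Bag3 was at 1.10, with an interval of -0.05 to 2.56 that included 0, and Hspb8 at 2.25.

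Hspb7 encodes a chaperone found mainly in heart and skeletal muscle that binds filamin C. Its level was 141 CPM in QSCs (164 UMIs) and 1182 CPM in ASCs (10518 UMIs), and its log2 ratio was 3.07 (2.84 to 3.30). Hspb2, whose product binds the myotonic dystrophy kinase DMPK, went from 102 CPM (118 UMIs) to 188 CPM (1674 UMIs). Its log2 ratio of 0.89 (0.62 to 1.17) lay under 2-fold, and relative to the median gene it was 1.13. Hspb3, which assembles with HSPB2, had 25.8 CPM (30 UMIs) and 56.7 CPM (504 UMIs), a log2 ratio of 1.13 (0.60 to 1.72). The genes of the HSPB2 and HSPB3 pair had the smallest ratios of the family, and Cryab, the divergent neighbour of Hspb2, one of the largest.

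**Figure D1:**
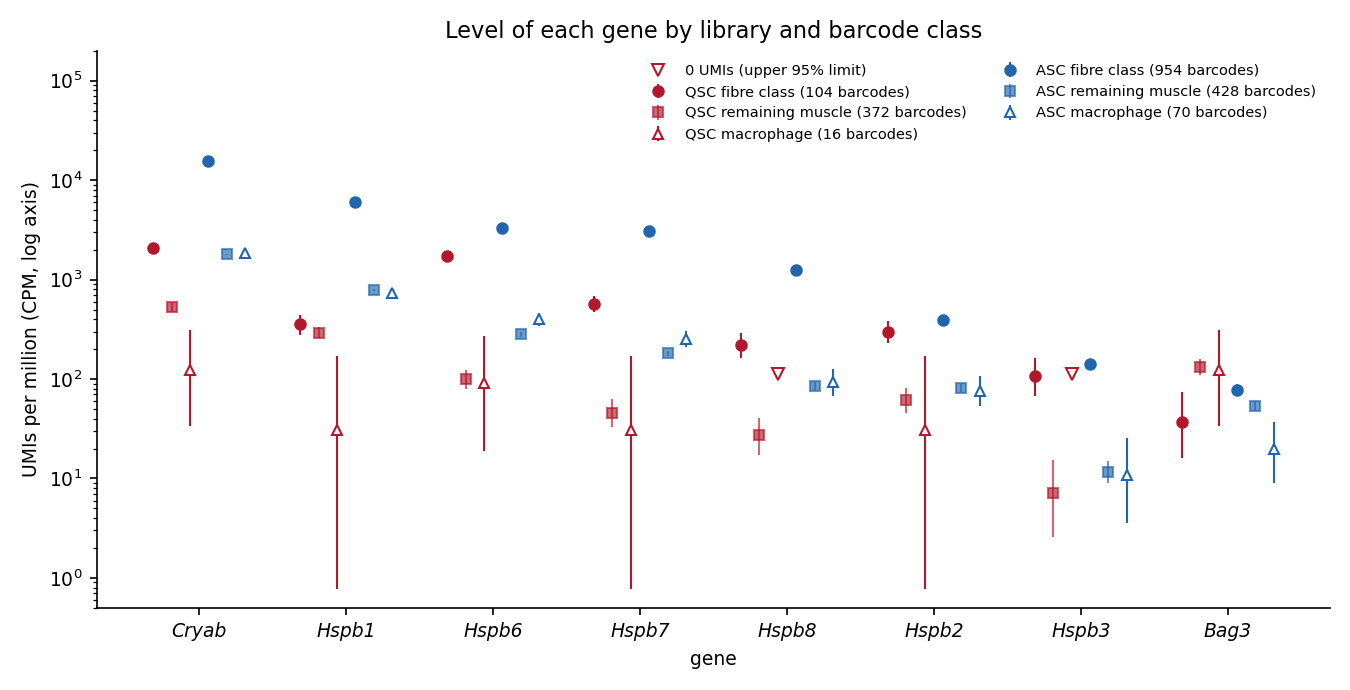
Level of each gene in CPM (log axis) in fibre-class, remaining muscle and macrophage barcodes of the QSC (red) and ASC (blue) libraries, with exact Poisson 95% intervals and open triangles pointing down at the upper limit where 0 UMIs were counted. In the ASC library the muscle squares and macrophage triangles lie close together (folds of 0.704 to 1.08) for every gene except Bag3 (53.4 against 19.6 CPM).

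Fibre-class barcodes were a larger part of the ASC library, so the libraries were next compared within that class. Of the 8 genes, 5 were at least 2-fold higher in the ASC fibre class and 0 were at least 2-fold lower. Of 5086 genes tested there, 18.3% were at least 2-fold higher and 12.1% at least 2-fold lower. Hspb1 had the largest ratio, with 354 CPM in the QSC fibre class (76 UMIs) and 6042 CPM in the ASC fibre class (18679 UMIs), a log2 ratio of 4.09 (3.77 to 4.44). Cryab stood at 2056 CPM and 15670 CPM, a log2 ratio of 2.93 (2.79 to 3.07). Hspb8 stood at 219 CPM and 1243 CPM (2.504, 2.09 to 2.95), and Hspb7 at 574 CPM and 3050 CPM (2.41, 2.15 to 2.68).

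Fibre transcripts of the other members differed less between the libraries. Hspb6 was already at 1725 CPM in the QSC fibre class and reached 3276 CPM in the ASC fibre class, a log2 ratio of 0.93 (0.78 to 1.08). Hspb2 went from 298 CPM to 389.5 CPM (0.38, 0.02 to 0.77). Hspb3 went from 107 CPM to 141 CPM (0.40), and its interval of -0.21 to 1.07 held both no difference and a 2-fold one. Bag3 stood at 37.3 CPM in the QSC fibre class, from 8 UMIs only, and at 77.6 CPM in the ASC fibre class, from 240 UMIs. Its log2 ratio there was 1.06 (0.06 to 2.29), of the opposite sign to the one over all barcodes.

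Fibre-class barcodes took 19.7% of their UMIs in QSCs and 15.5% in ASCs from the 10 fibre genes. These genes define the class, so the shares are no separate check of fibre content. Mitochondrial reads, depth and the makeup of fibre types moved with the library as well, and their part in these ratios was not tested.

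**Figure D2:**
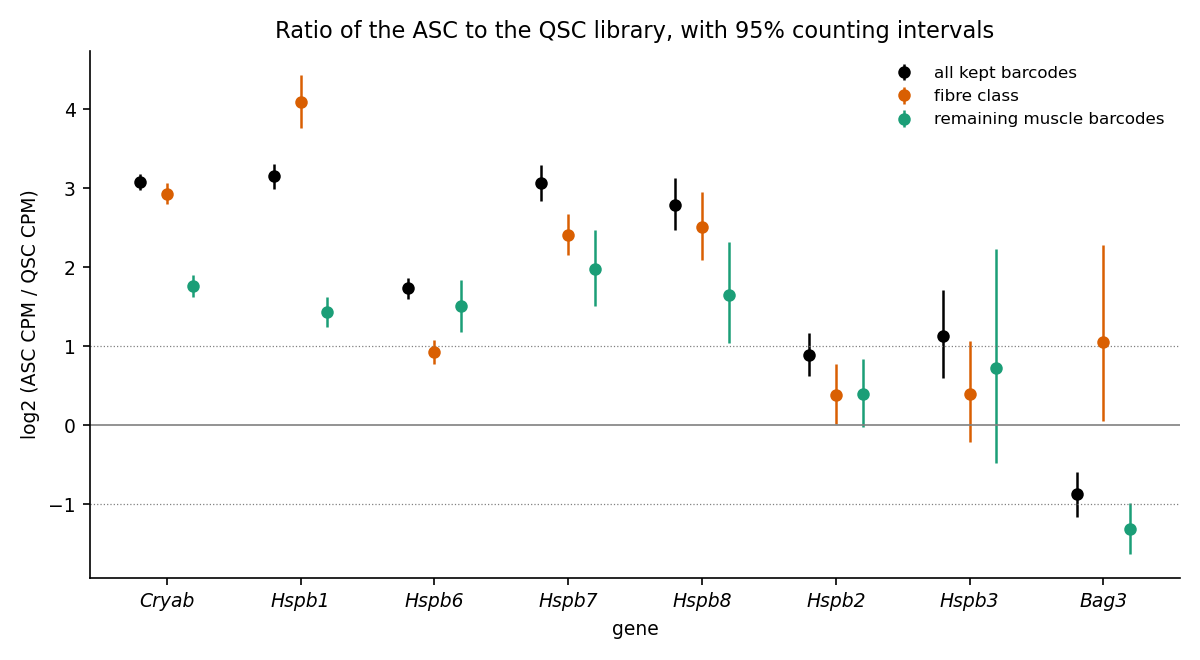
Log2 ratio of ASC over QSC CPM for each gene over all kept barcodes (black), the fibre class (orange) and the remaining muscle barcodes (green), with exact 95% counting intervals and dotted lines at 2-fold. Hspb1 had its largest ratio in the fibre class (4.09), and Bag3 lay above 0 there (1.06) and below 0 in the remaining muscle barcodes (-1.31).

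Outside the fibre class, 7 of the genes passed the level filter in the remaining muscle barcodes, Hspb3 being the gene that did not. Of these 7, 5 were at least 2-fold higher in the ASC library and 1, Bag3, at least 2-fold lower. Of 7338 genes tested in that class, 17.1% were at least 2-fold higher and 22.9% at least 2-fold lower. Cryab went from 528 CPM to 1789 CPM (log2 ratio 1.76, 1.62 to 1.90). Hspb1 went from 292 CPM to 787 CPM (1.43, 1.24 to 1.62). Hspb6, Hspb7 and Hspb8 had log2 ratios of 1.50, 1.98 and 1.65. Hspb2 stood at 61.3 CPM and 80.9 CPM, and its interval of -0.02 to 0.84 included no difference.

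The ASC levels of these 5 genes in muscle barcodes have to be read against free RNA, that is, transcripts of broken cells that enter every droplet. Macrophage-like barcodes served as the background, on the assumption, not tested here, that they make little of these transcripts themselves. In the ASC library Cryab stood at 1860 CPM in macrophage-like barcodes and 1789 CPM in remaining muscle barcodes, a fold of muscle over macrophage of 0.962 (0.897 to 1.03). Hspb1 stood at 731 CPM and 787 CPM, a fold of 1.08 (0.964 to 1.21). For Hspb8 the fold was 0.907 (0.663 to 1.27), for Hspb2 1.06 (0.750 to 1.54) and for Hspb3 1.07 (0.436 to 3.42). Hspb6 (0.704) and Hspb7 (0.715) were even lower in muscle than in macrophage-like barcodes, as were the 10 fibre genes together (0.766). Over the whole class, the ASC signal of the 7 family genes thus did not exceed the background measured in macrophages, and it is not read as expression by activated satellite cells. The folds of Hspb1 and Cryab nonetheless lay above that of the fibre genes, and single clusters, formed without these 8 genes among the variable genes, differed. In a cluster of 47 ASC barcodes with Mymk and Myog among its leading genes Cryab was 1.36-fold (1.25 to 1.48) and Hspb2 1.66-fold (1.10 to 2.55) above macrophage-like barcodes. In the cluster led by Bgn and C1qtnf3 Hspb1 was 1.25-fold above them (1.11 to 1.41). In the cycling cluster led by Rrm2, where 47 of 151 barcodes were of the fibre class, Cryab (1.197-fold), Hspb6 (1.43-fold) and Hspb7 (1.42-fold) had intervals above 1. Such folds were not particular to muscle clusters. In a cluster of 24 ASC barcodes led by S100a8 and S100a9, 10 of them non-muscle, Cryab was 1.63-fold (1.35 to 1.95) above macrophage-like barcodes. Hspb1 was 1.58-fold (1.16 to 2.11) and Hspb7 1.98-fold (1.21 to 3.11) above them there. The part of free RNA in these small folds was not tested.

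Genes of the muscle lineage behaved otherwise in the same barcodes. Des, which encodes the muscle intermediate filament desmin, was 3.05-fold (2.64 to 3.55) and Pax7 13.5-fold (2.39 to 536) higher in remaining muscle than in macrophage-like barcodes. Bag3 was 2.72-fold (1.41 to 6.01) higher, with 53.4 CPM in muscle against 19.6 CPM (9 UMIs) in macrophage-like barcodes. Over the whole class of ASC muscle barcodes, Bag3 was therefore the member of the 8 with an interval above 1.

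Background of Hspb1, Cryab and Hspb6 was lower in the QSC library, measured in few barcodes. Its 16 macrophage-like barcodes held 1 UMI of Hspb1 (30.6 CPM), 4 of Cryab (122 CPM) and 3 of Hspb6 (91.8 CPM). The 10 fibre genes differed less, at 21456 CPM in QSC and 25358 CPM in ASC macrophage-like barcodes. Their fold of muscle over macrophage-like barcodes was 0.825 in the QSC library. Hspb1 in QSC muscle barcodes stood at 292 CPM, 9.55-fold above its background (1.70 to 379), and Cryab at 528 CPM, 4.31-fold above (1.67 to 15.9). Hspb6 (1.08-fold, 0.357 to 5.33), Hspb7 (1.50-fold, 0.254 to 60.8) and Hspb2 (2.00-fold, 0.344 to 80.6) had intervals that included 1. Hspb3 and Hspb8 had 0 UMIs in these 16 barcodes, so no fold is given. Bag3 stood at 122 CPM in QSC macrophage-like barcodes (4 UMIs) and 132 CPM in QSC muscle barcodes (1.08-fold, 0.410 to 4.03), where it cannot be called a muscle signal at this depth. Hspb1 and Cryab were thus the members whose fold over background had an interval above 1 in QSC muscle barcodes.

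Hspb1 and Bag3 were the members not clearly higher in fibre-class than in muscle barcodes of the QSC library. The Hspb1 level in remaining QSC muscle barcodes was 82.5% of its level in the fibre class, and that of Bag3 354%, against 25.7% for Cryab, 12.4% for Hspb8 and 5.74% for Hspb6. The 10 fibre genes stood at 8.99% of their fibre-class level there. In the ASC library the same figure was 13.0% for Hspb1, 12.5% for the fibre genes and 68.8% for Bag3. Fibre-class over muscle barcodes gave a fold of 1.21 for Hspb1 in the QSC library, with an interval (0.925 to 1.57) that included 1, and of 7.67 (7.42 to 7.94) in the ASC library.

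Other non-muscle barcodes held the genes as well. The 17 fibroblast-like barcodes of the QSC library held 12 UMIs of Hspb8, which is 210 CPM (108 to 366), near the 219 CPM of the QSC fibre class. Cryab stood at 244 CPM and Bag3 at 52.4 CPM (3 UMIs) there. In the 10 neutrophil-like barcodes of the ASC library Cryab stood at 1619 CPM, and Bag3 and Hspb3 had 0 UMIs.

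Shares of barcodes with at least 1 UMI were compared after thinning every barcode to 1200 UMIs. In the fibre class Hspb1 was found in 30% of QSC barcodes (20.8 to 40.6, n = 90) and 90.2% of ASC barcodes (88.0 to 92.1, n = 867). Thinning left out 14 QSC and 87 ASC barcodes of the class, and the unthinned shares were 42.3% and 96.8%. Hspb8 was found in 17.8% (10.5 to 27.3) and 64.6% (61.3 to 67.8) of thinned barcodes, and Hspb7 in 38.9% and 85.8% (unthinned 33.7% and 83.1% for Hspb8, 47.1% and 94.9% for Hspb7). Hspb6 was found in 76.7% (66.6 to 84.9) and 88.5% (86.1 to 90.5), unthinned 85.6% and 95.3%. Hspb3 was found in 11.1% (5.46 to 19.5) and 14.5% (12.2 to 17.1), and Bag3 in 2.22% (0.270 to 7.80) and 7.84% (6.14 to 9.84), with overlapping intervals for both genes (unthinned 19.2% and 31.1% for Hspb3, 6.73% and 17.7% for Bag3).

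In remaining muscle barcodes the thinned share with a Bag3 UMI was 13.4% in QSCs (10.1 to 17.3, n = 366) and 8.31% in ASCs (5.86 to 11.4, n = 421). Thinned ASC macrophage-like barcodes held it in 2.90% (0.353 to 10.1, n = 69). These classes lost 6, 7 and 1 barcodes to thinning, and their unthinned shares were 24.7%, 42.3% and 10%. The thinned share was lower in ASC than in QSC muscle barcodes, with overlapping intervals. The unthinned share was higher, at median depths of 2221 UMIs in QSCs and 7932 UMIs in ASCs. The share with a Cryab UMI was 89.1% in ASC muscle and 82.6% in ASC macrophage-like barcodes (unthinned 100% and 98.6%), whose median depths before thinning were 7932 and 6582 UMIs. At this depth a Cryab UMI in an ASC barcode says little about the cell. Counted over the 8 genes, 89.7% of thinned ASC fibre barcodes held at least 4 of them, against 26.7% in the QSC fibre class, 11.2% in ASC muscle, 5.80% in ASC macrophage-like and 1.37% in QSC muscle barcodes.

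**Figure D3:**
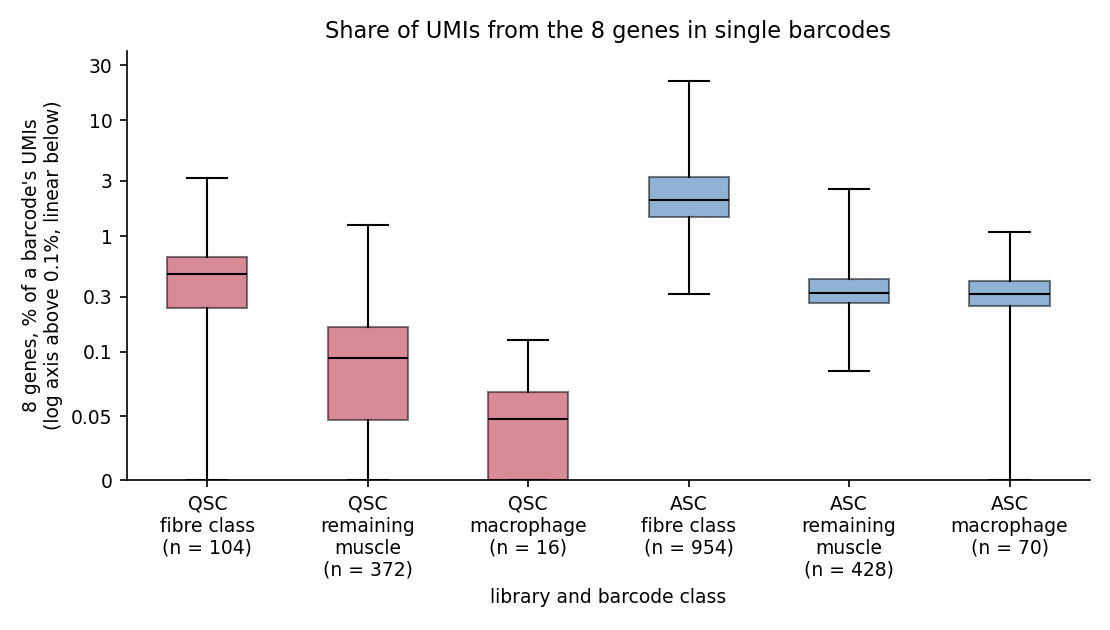
Percent of a barcode's UMIs that came from the 8 genes (log axis above 0.1%, linear below), by library and barcode class, with boxes for the quartiles and whiskers to the lowest and highest barcode. The ASC fibre class had a median of 2.05% and reached 21.9%, while ASC muscle and macrophage boxes lay at the same height (medians 0.324% and 0.315%).

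Single barcodes of the ASC fibre class varied widely. The 8 genes took a median of 2.05% of a barcode's UMIs there, with quartiles of 1.45% and 3.24% and extremes of 0.316% and 21.9%. Cryab alone ranged up to 11.2% and Hspb1 up to 8.43%. In the QSC fibre class the median was 0.469% and the highest barcode had 3.16%. More than 1 transcript in 5 of the most extreme ASC barcode thus came from this small group of chaperone genes.

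That spread followed the clusters. Barcodes of both libraries were clustered with the 8 genes left out of the variable genes, though genes that vary with them stayed in, and 13 clusters were found. A cluster of 215 ASC barcodes was led by Ankrd1, Mybph and Csrp3, of which Ankrd1 and Csrp3 are known to respond to stretch of fibres, and 214 of these barcodes were in the fibre class. In it Cryab stood at 33399 CPM and Hspb1 at 17543 CPM, and the 8 genes together made up 6.33% of UMIs. This cluster held 14.6% of ASC barcodes but 55.6% of the library's Hspb1 UMIs, 43.6% of its Hspb8 UMIs, 41.8% of its Cryab UMIs and 39.2% of its Hspb7 UMIs. Its shares of Hspb3 (31.9%), Hspb2 (25.2%), Hspb6 (20.4%) and Bag3 (18.5%) UMIs were smaller. Hspb1 was also among the 10 leading genes of the cluster by fold.

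The cluster was set beside the largest fast-fibre cluster, 364 ASC barcodes with Myh4 and Pvalb among their leading genes. Hspb1 was 6.73-fold higher in the Ankrd1 cluster (6.48 to 6.99), Cryab 3.53-fold (3.46 to 3.61), Hspb8 2.79-fold (2.60 to 3.001) and Hspb7 2.77-fold (2.64 to 2.91). Bag3 was 2.57-fold higher (1.87 to 3.55), Hspb3 1.86-fold and Hspb2 1.78-fold. Hspb6 did not share the pattern, with 3273 CPM and 3332 CPM (0.982-fold, 0.934 to 1.03). The 10 fibre genes together were at 0.819-fold.

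A cluster of 112 ASC barcodes was led by the slow-fibre troponin genes Tnni1, Tnnc1 and Tnnt1. Hspb6 reached its highest level of all clusters here, at 5602 CPM (1.68-fold above the fast-fibre cluster, 1.59 to 1.77), and Hspb7 stood at 3456 CPM (1.71-fold, 1.60 to 1.83). Bag3 stood at 101 CPM (1.94-fold, 1.24 to 2.96) and Cryab at 12184 CPM (1.29-fold, 1.24 to 1.33). Hspb8 was lower, at 360 CPM (0.391-fold, 0.321 to 0.471). Hspb1, Hspb2 and Hspb3 had intervals of the fold that included 1. In a cluster of 214 ASC barcodes led by haemoglobin genes and Mt3, Hspb6 was at 879 CPM (0.264-fold, 0.241 to 0.288) while Cryab was at 8078 CPM (0.854-fold). The 10 fibre genes were at 0.456-fold in that cluster. In the cluster led by Tnni1, Hspb6, Hspb7, Bag3 and Cryab were thus higher and Hspb8 lower than in the fast-fibre cluster. Only 24 of its 112 barcodes (21.4%) held a Tnnt1 UMI. A Pvalb UMI was in 111 of them, but all 70 ASC macrophage-like barcodes held one too, so it says little about fibre type. The Pvalb level was 4430 CPM here and 15647 CPM in the fast-fibre cluster. With a Tnnt1 UMI in so few barcodes, these differences cannot be assigned to slow-fibre barcodes.

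**Figure D4:**
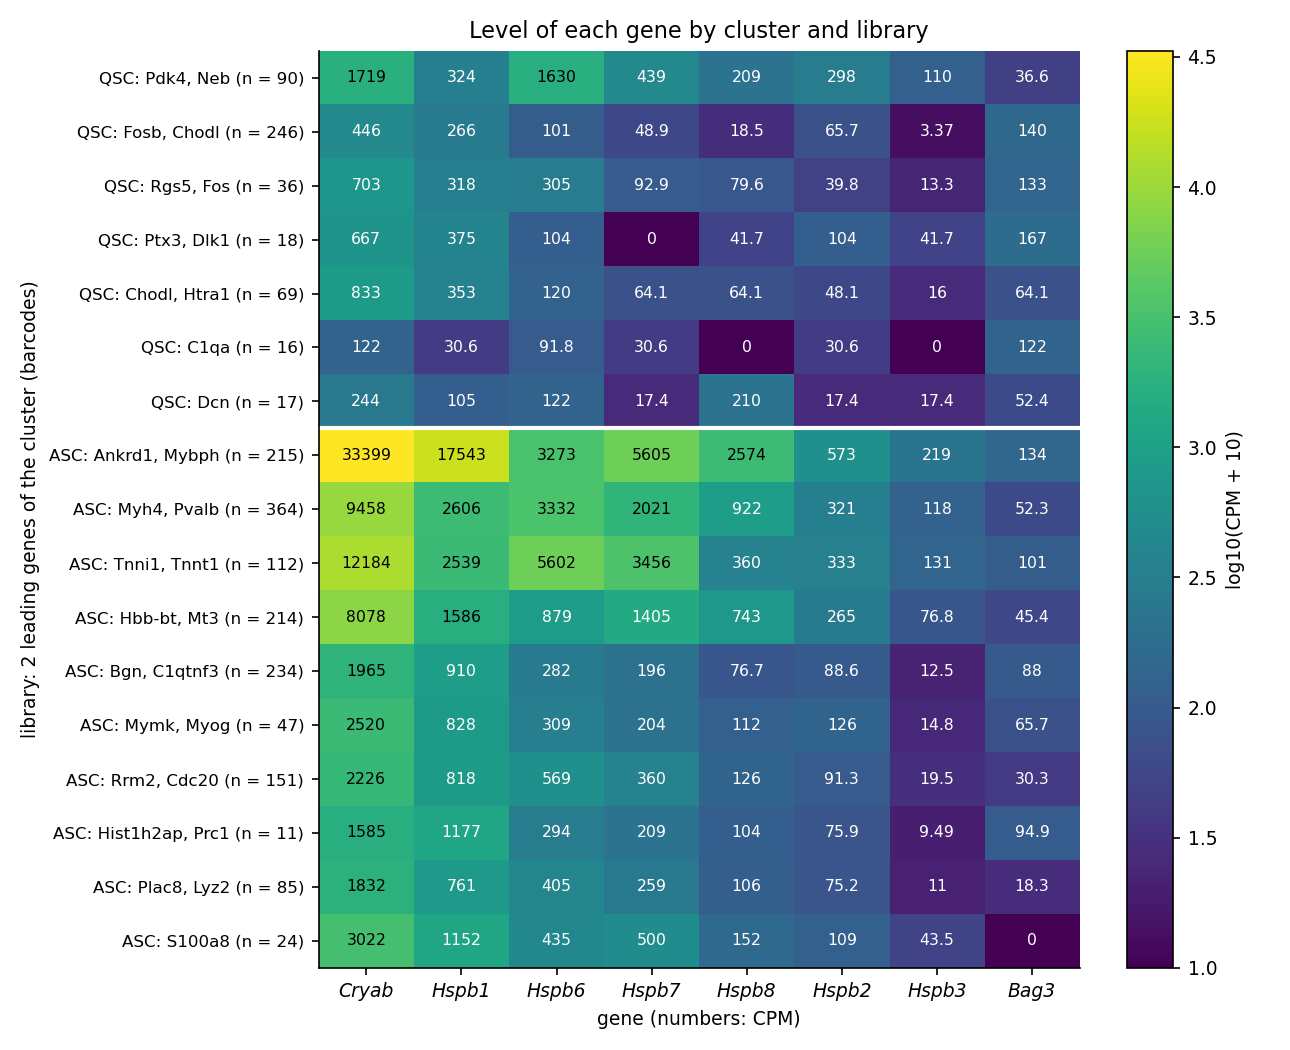
Level of each gene (numbers, CPM; colour, log10 of CPM + 10) in each cluster of the QSC (above the white line) and ASC (below) libraries, with clusters labelled by 1 or 2 of their leading or marker genes and their number of barcodes. Cryab (33399 CPM) and Hspb1 (17543 CPM) were highest in the ASC cluster led by Ankrd1, Hspb6 in the cluster led by Tnni1 (5602 CPM) and Bag3 in the small QSC cluster led by Ptx3 (167 CPM from 8 UMIs).

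A difference between the libraries remained without the Ankrd1 cluster. The ASC fast-fibre cluster was compared with the 90 fibre-class barcodes that formed a cluster of their own in the QSC library, led by Pdk4, Neb and Trdn. Hspb1 was 8.04-fold higher in the ASC cluster (6.26 to 10.5), Cryab 5.50-fold (4.93 to 6.16), Hspb7 4.604-fold (3.70 to 5.79), Hspb8 4.41-fold (3.22 to 6.21) and Hspb6 2.04-fold (1.82 to 2.30). Hspb2 (1.08-fold, 0.817 to 1.45), Hspb3 (1.07-fold, 0.676 to 1.78) and Bag3 (1.43-fold, 0.658 to 3.69) had intervals that included 1. The 10 fibre genes were at 0.896-fold.

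Bag3 had a profile of its own. In the QSC library it stood at 140 CPM (111 to 173) in 246 barcodes led by Fosb and Chodl, and at 167 CPM (72.0 to 328, 8 UMIs) in 18 barcodes led by Ptx3. Another 69 barcodes, 66 of them in the muscle class and with Chodl among their leading genes, held it at 64.1 CPM (27.7 to 126). The QSC macrophage cluster stood at 122 CPM (33.4 to 313), which cannot be separated from these levels. The fibre cluster had the lowest level, 36.6 CPM (14.7 to 75.4), and its interval overlapped those of every QSC cluster except the one led by Fosb. In the ASC library Bag3 stood at 134.5 CPM (109 to 164) in the Ankrd1 cluster and 101 CPM in the cluster led by Tnni1. A cluster of 234 barcodes led by Bgn and C1qtnf3, 225 of them in the muscle class, held it at 88.0 CPM. The level was 65.7 CPM in the Myog cluster, 30.3 CPM in the cycling cluster led by Rrm2 and 18.3 CPM (8.79 to 33.7) in the macrophage cluster. Over the macrophage-like barcodes of that library, Bag3 was 4.49-fold higher in the cluster led by Bgn (2.30 to 10.0) and 3.35-fold in the Myog cluster (1.60 to 7.85). The cycling cluster had a fold of 1.55 with an interval (0.776 to 3.496) that included 1. In the ASC library Bag3 was thus above background in clusters of muscle cells as well as in fibre clusters.

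**Figure D5:**
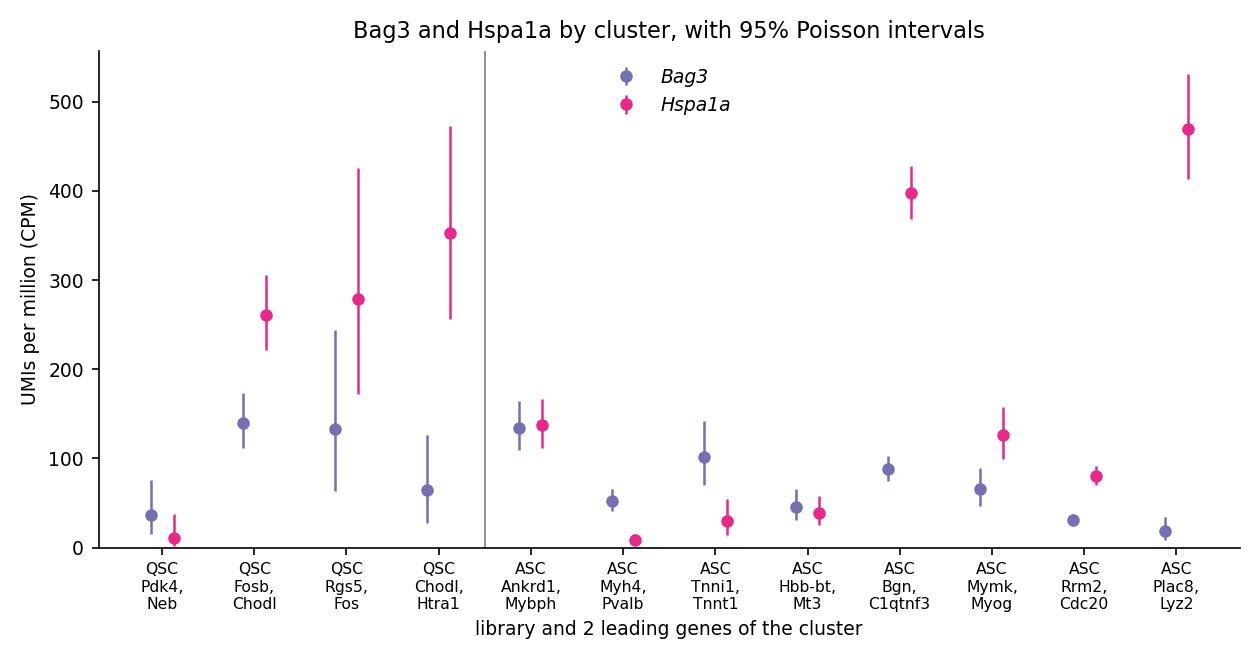
CPM of Bag3 (purple) and Hspa1a (pink) in 12 clusters of the QSC (left of the line) and ASC libraries, with exact Poisson 95% intervals. Bag3 stood at 140 CPM in the QSC cluster led by Fosb and at 134.5 CPM in the ASC cluster led by Ankrd1, and Hspa1a was low in the fibre clusters of both libraries apart from the Ankrd1 cluster (137 CPM).

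The genes most like each member were taken over 13 groups of cluster and library with at least 20 barcodes, by Pearson's r of log2(CPM + 10) among 4769 genes. These groups share library, depth and free RNA, so r is a description. Hspb1 was most like Cryab (0.952), Xirp1 (0.942) and Klhl40 (0.9396). Cryab was most like Hspb7 (0.975), Klhl40 (0.974) and Gm41757 (0.970), and Hspb7 like Cryab (0.975), Gm41757 (0.974) and Klhl30 (0.966). Hspb8 was most like Pdlim3 (0.989), Klhl30 (0.960) and Cnksr1 (0.957). Hspb6 was most like Ppp1r27 (0.983), Smpx (0.973) and Arpc5l (0.964). Hspb3 was most like 2310002L09Rik, Cystm1 and Tnni2 (0.976 to 0.959), and Hspb2 like Shisa2, Ccng1 and Ubac1 (0.973 to 0.948). Bag3 was most like Popdc2 (0.918), Tmem246 (0.904) and Aldh7a1 (0.899), and its r with the other 7 members lay between -0.03 and 0.09. Among 867 ASC fibre barcodes at equal depth, rank correlations were 0.541 for Hspb1 with Cryab, 0.544 for Hspb1 with Ankrd1, 0.564 for Cryab with Csrp3 and 0.045 for Cryab with Hspb6.

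Partners of the chaperones were examined in lists chosen with earlier results of these data known, over all barcodes, with the background shares given above. Of 7 partners and clients of BAG3, 0 were 2-fold higher and 0 were 2-fold lower (median log2 ratio -0.12). Hspa8, the constitutive HSP70 that BAG3 docks on, stood at 2064 CPM and 3013 CPM (0.55, 0.48 to 0.61). Stub1, the ubiquitin ligase CHIP, had a log2 ratio of 0.44, Synpo2, which tethers the complex at the Z-disc, 0.33, and Flnc, the filamin client, -0.65 (-0.95 to -0.33). Sqstm1, the autophagy receptor p62, went from 317 CPM to 185 CPM (-0.78, -0.94 to -0.61). In the fibre class Sqstm1 was higher in ASCs (0.73, 0.28 to 1.23) and in remaining muscle barcodes lower (-1.67, -1.87 to -1.46), as Bag3 was. Flnc had 1 UMI in the QSC fibre class and 159 UMIs in the ASC fibre class, a log2 ratio of 3.46 (0.96 to 8.78).

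Of 16 genes of the larger heat shock families, 4 were at least 2-fold higher and 2 at least 2-fold lower (median 0.57). Hspe1, the mitochondrial co-chaperonin, was the highest at 1.88 (1.69 to 2.06), and Dnajb1, an HSP40 induced by heat shock factor, the lowest at -1.42 (-1.66 to -1.19). The near-identical inducible HSP70 genes had ratios of opposite sign, and their split is uncertain. Hspa1a stood at 228 CPM in QSCs and 168 CPM in ASCs (-0.44, -0.63 to -0.25), and Hspa1b at 6.88 CPM and 18.3 CPM (1.41, 0.40 to 2.65). In the fibre class Hspa1a had 2 UMIs in QSCs and 177 UMIs in ASCs (2.62, 0.74 to 5.67). Of 3 genes with enough UMIs, the heat shock factor genes Hsf1 and Hsf2 and the factor-binding protein gene Hsbp1, 0 passed 2-fold. Hsf1, the main factor of the heat shock response, was at -0.41 (-0.84 to 0.06), and Hsbp1 at 0.06. The lens and testis members of the family were all but absent, with 1 ASC UMI each of Cryaa and Odf1 and 0 UMIs of Hspb9, and Hspb11 stood at 22.4 CPM and 26.8 CPM (0.26, -0.33 to 0.90).

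Of 5 other BAG genes, 1 was at least 2-fold higher, Bag2 (1.21, 0.66 to 1.81), and Bag6 was the lowest at -0.64 (median -0.10). Of 8 filament and Z-disc genes, 1 was at least 2-fold higher, Vim (2.70, 2.56 to 2.85), which encodes vimentin (median 0.56). The median of these 8 genes was 0.21 in the fibre class and -0.14 in remaining muscle barcodes. Des had a log2 ratio of 0.97 (0.89 to 1.05), Dmpk 0.40 (0.05 to 0.77), and Flnc was the lowest. Of 7 fibre stress genes, 5 were at least 2-fold higher (median 3.02), from Mt3 at 7.56, with 1 QSC UMI and an interval of 5.08 to 12.9, to the ubiquitin ligase Fbxo32 at -0.74. Of 7 early-response genes, 6 were at least 2-fold lower (median -2.96), from Fosb at -4.42 (-4.52 to -4.32) to Atf3 at -0.85. The median of these genes was -1.09 in the fibre class and -2.88 in remaining muscle barcodes. Atf3 was higher in the ASC fibre class (2.28, 1.23 to 3.60) and lower in ASC muscle barcodes (-1.61, -1.85 to -1.38).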

How the data were processed

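QSCs and ASCs were profiled in 1 library each with the 10x 3′ v2 chemistry. The authors mapped reads with Cell Ranger and deposited raw UMI counts per gene and barcode. The labels and methods name release 7.1.0 and the file headers 6.0.2, with genome build mm10; the annotation and use of strand are not given in the sources used here.

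Barcodes with at least 500 genes and at most 10% mitochondrial UMIs were kept. Counts were summed per library or class and expressed as CPM with exact Poisson intervals. Ratios carry exact conditional binomial and shares Clopper-Pearson intervals (95%), which cover counting error only. The ratio intervals covered the true value for 95.6% of 7353 genes in a simulated data set of the comparison over all barcodes. No test or p-value was computed from cells. Genes were compared from a mean of 10 CPM, and a ratio of 2 counted as called; a count of 0 was set to 3 counts there. Non-muscle barcodes had at least 0.5% of UMIs and at least 3 distinct markers of 1 cell type, a rule written after the data were seen; 8 QSC and 101 ASC barcodes took between 3% and 7% of UMIs from fibre genes, near the fibre-class limit. Clustering used Seurat 5.3.0 in R 4.3.3 with the study's settings (10 principal components, resolution 0.6, 1084 variable genes, of which 5 members were left out). TMM factors came from edgeR 4.0.16. Doublets were not removed; leaving out the deepest 5% of barcodes was an alternative. Symbols matched GENCODE M21 by identifier for 99.6% of features. The members and lists were chosen with earlier results of these data known. Named were all members, for each the 3 genes with the highest r, of each list the highest and lowest ratio, and genes acting directly with a member.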

Additional observations from a re-analysis of the deposited data

Results flagged for a closer look

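Bag3 had ratios of opposite sign in the barcode classes. In the fibre class its log2 ratio of ASC over QSC was 1.058, from 8 QSC and 240 ASC UMIs. In the remaining muscle barcodes it was -1.306, from 112 and 283 UMIs. A ratio below 0 was not particular to muscle barcodes, with -2.64 (-4.48 to -0.49) in macrophage-like barcodes, from 4 and 9 UMIs. With 1 library per group these differences between classes were not tested.

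Barcodes outside the limits on genes and mitochondrial UMIs were not used in the comparisons and held transcripts of the 8 genes too. The 250 barcodes left out of the QSC library held 687 of these UMIs, and the 182 left out of the ASC library held 3284. Scaled to the UMIs of those barcodes, these were 3735 and 20025 CPM.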

How the results depend on the processing

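No paired analysis was possible because each group had 1 library. Over 14 alternatives, the log2 ratio of ASC over QSC stayed above 0 for the 7 family genes. It ran from 1.43 to 4.09 for Hspb1, 1.76 to 3.78 for Cryab, 0.80 to 2.38 for Hspb6 and 1.98 to 3.78 for Hspb7. The range was 1.23 to 3.51 for Hspb8, 0.23 to 1.54 for Hspb2 and 0.08 to 1.84 for Hspb3. Some intervals of Hspb2 and Hspb3 included 0. Under the mitochondrial limit of 1% these were -0.17 to 0.65 and -0.55 to 0.79. In remaining muscle barcodes they were -0.02 to 0.84 and -0.48 to 2.23. Bag3 changed sign in the fibre class only (1.06) and under the study's mitochondrial limit of 1% (1.10), which kept 86 QSC barcodes, 85 of them of the fibre class, and 948 ASC barcodes. Without the ASC cluster highest in Ankrd1, an alternative chosen after seeing the data, Hspb1 was at 2.10, Bag3 at -1.05, and 1 gene, Bag3, was at least 2-fold lower. The number at least 2-fold higher was 5 to 7 in every alternative run, 7 under the TMM scale, which added 0.28 to each log2 ratio. Depth limited Bag3 and Hspb3 most, with 8 and 23 UMIs in the QSC fibre class.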
